A study of Mus musculus with 6 samples.

Results

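The 34 genes described here carry long-chain fatty acids into heart muscle cells, activate them and oxidise them in mitochondria, or are induced by the fatty acid sensing receptors of the PPAR family. They were taken by gene symbol from the deposited gene table, which lists all 34 among its 14956 genes. Mouse hearts gave 6 poly(A) RNA libraries, 3 heterozygous for an Otub1 knockout (Otub1 +/-, Het) and 3 wild type (Otub1 +/+, WT). The mice, 3 of each genotype, had all received doxorubicin (DOX) in 6 injections over 2 weeks, so no untreated heart stands beside them. Age, sex, strain, dose and the design of the Otub1 allele are not stated in the sources used here. The libraries match the mice in number, although the labels do not tie each to its own mouse, and each is counted as 1 heart. Values are FPKM, a read abundance scaled by transcript length and by library depth, so levels can be compared between genes.

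The adult heart takes most of its energy from fatty acids. Lipoprotein lipase frees them from circulating triglyceride, CD36 and fatty acid transport proteins take them up, and a heart-type binding protein carries them through the cytosol. They are then joined to coenzyme A, passed into mitochondria by the carnitine shuttle and shortened in repeated turns of beta-oxidation, whose electrons reach the respiratory chain partly through electron transfer flavoprotein (ETF). PPAR-alpha, a nuclear receptor bound by fatty acids, drives many of these genes with its partner RXR and the coactivator PGC-1alpha. Doxorubicin is an anthracycline whose clinical use is limited by injury to this tissue, and OTUB1 is a deubiquitinase.

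Otub1, the disrupted gene, stood at 4.83, 6.48 and 6.65 FPKM in hearts Het 1, 2 and 3, against 15.4, 14.9 and 14.2 FPKM in WT 1, 2 and 3. The groups did not overlap (exact two-sided permutation p = 0.1, the smallest that 3 libraries against 3 allow), with a log2 fold change of -1.19 and a limma adjusted p of 0.376. Without Het 1 the limma adjusted p of Otub1 was 0.0131. The authors' deposited table gives this gene a q-value of 1.62e-17. Het 1 stood apart from the other libraries. Across the 11096 tested genes its highest correlation with any other library was 0.887, and the other libraries reached 0.970 to 0.987. Mitochondrially encoded transcripts made up 65.0% of its summed FPKM, against 51.5% to 56.1% in the other 5 libraries. Cardiomyocyte markers were present in every heart, with 8 of 8 listed. Their summed level was 7307 to 15840 FPKM in Het hearts, lowest in Het 1, and 16816 to 19520 FPKM in WT hearts. Het 1 was lowest for 6 of the 8, where 64.8% of tested genes had their lowest value there. Atp2a2 stood at 165 FPKM in Het 1 and 1277 to 1951 FPKM in the other hearts. Tnni3, at 1100 FPKM in Het 1, and Myl2, at 1683 FPKM, were lowest in Het 3. Hepatocyte markers summed to 2.45 to 45.9 FPKM in Het hearts and 132 to 187 FPKM in WT hearts. Lung epithelial markers summed to 868 FPKM in Het 3 and to at most 1.05 FPKM in any other heart. For many genes the log2 fold change is therefore also given without Het 1, or without Het 1 and Het 3.

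No fatty acid gene passed the test between genotypes. Genes averaging 1 FPKM or more over the 6 hearts were compared on the log2(FPKM + 1) scale with limma, a linear model that shares information on spread between genes. All 34 reached that mean. None had an adjusted p under 0.05 after Benjamini-Hochberg adjustment over 11096 genes, where 0.018% of all tested genes did. None had an unadjusted limma p under 0.05 in either direction, where 3.08% of tested genes were lower and 0.802% higher in Het by that measure. The median log2 difference of the 34 genes was -0.47, Het minus WT, while the median of all tested genes was -0.18, and 32 of the 34 lay below 0, as did 76.6% of tested genes. The authors' deposited table lists none of the 34 with a q-value under 0.05, where 1.02% of its genes are, and its lowest q-value among them is 0.767. It gives none of them a p-value under 0.05 either, where 7.08% of its genes have one.

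Most of the low values lay in a single heart. Het 1 held the lowest value of all 6 libraries for 30 of the 34 genes, where 64.8% of tested genes had their lowest value there. For 25 genes its FPKM was less than 50% of the lowest of the other 5 hearts, which held for 24.5% of tested genes. The median log2 difference of the 34 genes from the WT mean was -1.61, 0.13 and 0.18 in hearts Het 1, 2 and 3, against 0.03, -0.15 and 0.12 in WT 1, 2 and 3. The corresponding medians of all tested genes were -0.45, -0.03 and -0.04 in hearts Het 1, 2 and 3. The summed level of the 34 genes was 2060 FPKM in Het 1 and 5404 and 5706 in the other Het hearts, against 4972 to 5783 FPKM in WT hearts. As a share of all FPKM outside the mitochondrial genome this was 0.771% in Het 1, 2.09% and 2.26% in Het 2 and 3, and 1.86% to 2.17% in WT. Whether a low value in Het 1 means fewer cardiomyocytes, less RNA in each or a property of that library cannot be told apart in these bulk data.

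**Figure D1:**
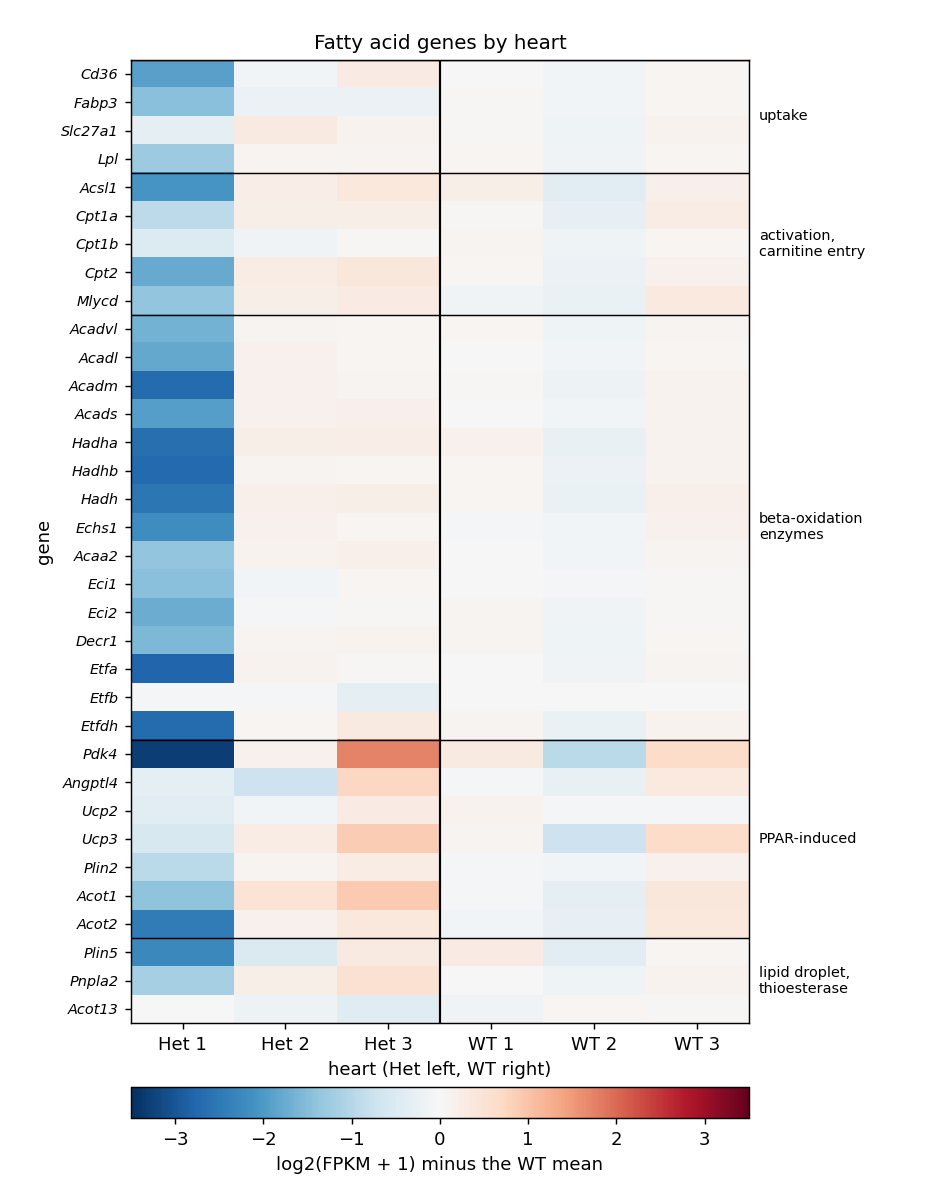
Each row is 1 of the 34 genes, ordered by role, and each column is 1 heart. Colour gives log2(FPKM + 1) minus the WT mean of the gene. The Het 1 column is mostly blue, with 30 of 34 genes lowest there, and the other columns are paler apart from Pdk4, Ucp3, Acot1, Angptl4 and, in Het 2 or Het 3, Plin5, Pnpla2 and Acot13.

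**Figure D2:**
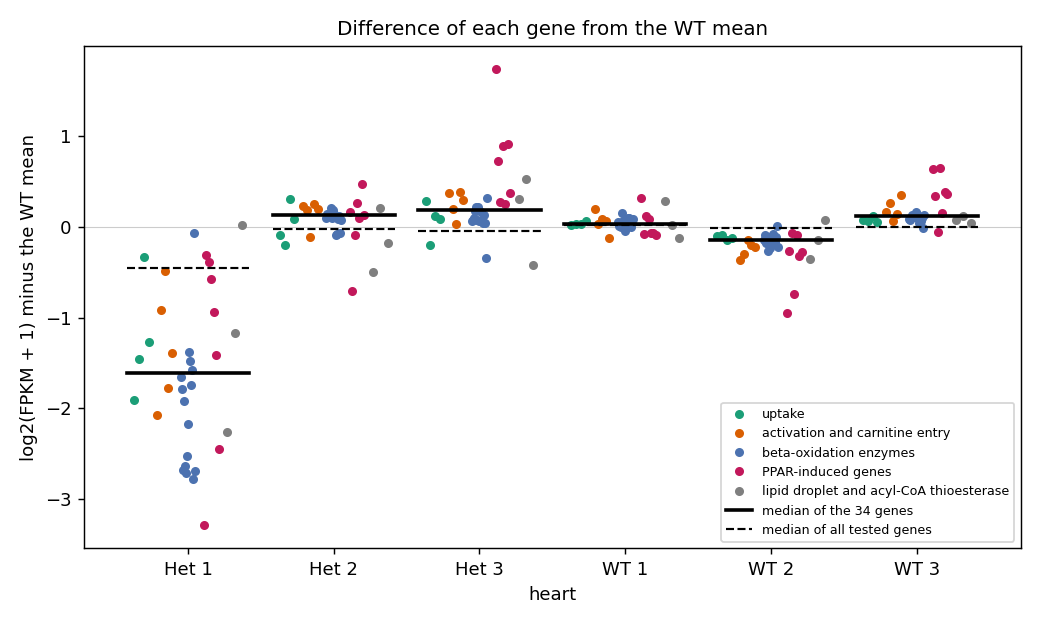
Points are the 34 genes in each heart, coloured by role, on the same log2 difference scale. Solid bars are their median and dashed bars the median of all 11096 tested genes. In Het 1 the solid bar lies at -1.61 and the dashed bar at -0.45, and in the other hearts the solid bar lies between -0.15 and 0.18.

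Among the uptake genes, Fabp3, the heart-type fatty acid binding protein (chromosome 4, 130308595 to 130315463, plus strand, GRCm38), had less RNA in each Het heart. Its level was 552, 1318 and 1317 FPKM in hearts Het 1, 2 and 3, against 1549, 1424 and 1585 FPKM in WT 1, 2 and 3. The groups did not overlap, and the Het 2 and Het 3 values were nearly equal. The log2 fold change was -0.62 (SE 0.39, limma adjusted p = 0.753). Without Het 1 it was -0.20 with an unadjusted limma p of 0.0497 and an adjusted p of 0.403. Of the 34 genes, Fabp3 and Etfb were those whose groups did not overlap, both lower, where 15.6% of tested genes were lower without overlap. No member was higher without overlap, against 1.83% of tested genes.

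Cd36, the main fatty acid translocase of the muscle membrane (chromosome 5, 17781690 to 17888801, minus strand), stood at 88.5, 316 and 408 FPKM in hearts Het 1, 2 and 3. WT 1, 2 and 3 had 340, 313 and 353 FPKM, so Het 2 lay within and Het 3 above the WT range (log2 fold change -0.57, SE 0.57, limma adjusted p = 0.753). The log2 fold change was 0.0992 without Het 1 and -0.0846 without Het 1 and Het 3, so its direction depended on which Het hearts were kept. Lpl, which encodes lipoprotein lipase, was also lowest in Het 1, with 130 FPKM in Het 1 and 334 and 336 in the other Het hearts, against 289 to 329 FPKM in WT hearts, so Het 2 and 3 both lay above WT. Slc27a1, a fatty acid transport protein with acyl-CoA synthetase activity, held 78.8% of its WT mean in Het 1. It stood at 22.5, 35.7 and 31.1 FPKM in Het hearts, against 29.1, 25.7 and 31.0 FPKM in WT hearts.

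For activation and mitochondrial entry, Acsl1, the main long-chain acyl-CoA synthetase of heart, stood at 14.4, 75.2 and 83.2 FPKM in hearts Het 1, 2 and 3. It stood at 73.0, 49.3 and 71.8 FPKM in WT 1, 2 and 3 (log2 fold change -0.48, SE 0.67, limma adjusted p = 0.774). Het 1 alone lay below the WT range, the log2 fold change was 0.31 without it, and WT 2 was the lowest of the other 5 hearts. Cpt2, the carnitine palmitoyltransferase of the inner membrane, stood at 18.1, 76.9 and 84.6 FPKM in Het hearts and 67.4, 55.9 and 71.2 FPKM in WT hearts. Mlycd, malonyl-CoA decarboxylase, which removes the inhibitor of CPT1, stood at 8.72, 28.0 and 30.1 FPKM in Het hearts and 22.3, 20.8 and 31.4 FPKM in WT hearts.

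Both forms of the outer membrane carnitine palmitoyltransferase CPT1 were measured. Cpt1b, the muscle form (chromosome 15, 89416405 to 89425863, minus strand), stood at 137, 178 and 198 FPKM in Het hearts, against 204, 174 and 201 FPKM in WT hearts (log2 fold change -0.19, SE 0.26, limma adjusted p = 0.772). This sign turned under median-ratio scaling, to 0.0520, and under quantile normalization, to 0.15, and the value was -0.0385 without Het 1. Cpt1a, the form best known from liver, stood at 3.34, 8.36 and 8.38 FPKM in Het hearts, against 7.36, 5.66 and 8.87 FPKM in WT hearts. The ratio of Cpt1b to Cpt1a was 41.0 in Het 1, 21.3 and 23.6 in Het 2 and 3, and 27.7, 30.6 and 22.7 in WT 1, 2 and 3. The muscle form therefore exceeded the liver form in every heart, and the ratio was highest in Het 1.

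The 15 genes of the beta-oxidation cycle and of ETF had the lowest median of the 5 roles in Het 1, at -1.92 on the log2 difference scale. Their medians were 0.13 and 0.08 in Het 2 and 3, and 0.05, -0.13 and 0.10 in WT 1, 2 and 3. The acyl-CoA dehydrogenases catalyse the first step, each for a range of chain lengths. Acadm, the medium-chain enzyme (chromosome 3, 153922357 to 153944632, minus strand), stood at 33.3, 242 and 236 FPKM in Het hearts, against 227, 193 and 241 FPKM in WT hearts. Het 1 held 15.1% of the WT mean of this gene. Het 1 held 31.5% of the WT mean of Acadvl, the very-long-chain enzyme, 28.8% of that of Acadl, the long-chain enzyme, and 25.3% of that of Acads, the short-chain enzyme. The 4 dehydrogenases thus stood at 31.5% of WT or less in this heart, and in Het 2 and 3 all 4 lay above the WT mean.

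Hadha and Hadhb encode the alpha and beta subunits of the mitochondrial trifunctional protein, which carries out the later steps for long chains. Hadha stood at 18.7, 141 and 142 FPKM in Het hearts and 136, 101 and 131 FPKM in WT hearts. Hadhb stood at 20.6, 152 and 148 FPKM in Het hearts and 148, 123 and 155 FPKM in WT hearts. Their ratio stayed between 0.820 and 0.955 in the other 5 hearts and was 0.908 in Het 1, so the partners were low together there. The genes lie head to head on chromosome 5, with RefSeq start sites 273 bases apart. The promoter window of Hadhb is shown for that reason (chr5:30155003-30155302, GRCm38.p6, plus strand, RefSeq), and its capitals mark the 228 bases that also lie in the window of Hadha.
Hadhb: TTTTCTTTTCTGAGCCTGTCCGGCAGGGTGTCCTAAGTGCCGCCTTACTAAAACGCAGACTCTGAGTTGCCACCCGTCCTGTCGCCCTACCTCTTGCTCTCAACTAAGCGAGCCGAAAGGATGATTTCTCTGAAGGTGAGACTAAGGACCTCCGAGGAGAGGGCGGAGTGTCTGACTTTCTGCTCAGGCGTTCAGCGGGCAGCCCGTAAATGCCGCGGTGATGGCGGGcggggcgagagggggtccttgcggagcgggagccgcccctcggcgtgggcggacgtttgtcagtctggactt

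Subunits of ETF separated in Het 1. Etfa, the alpha subunit (chromosome 9, 55454508 to 55512243, minus strand), stood at 31.4, 242 and 229 FPKM in Het hearts, against 223, 206 and 239 FPKM in WT hearts. Etfb, the beta subunit (chromosome 7, 43444083 to 43457800, plus strand), stood at 306, 304 and 251 FPKM in Het hearts, against 319, 322 and 318 FPKM in WT hearts. Het 1 therefore held 14.1% of the WT mean of Etfa and 95.8% of that of Etfb. The ratio of Etfa to Etfb was 0.103 in Het 1 and 0.639 to 0.913 in the other 5 hearts. Etfdh, the oxidoreductase that passes electrons from ETF to ubiquinone, followed Etfa, with 8.32, 62.9 and 74.1 FPKM in Het hearts and 63.4, 50.8 and 65.1 FPKM in WT hearts.

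**Figure D3:**
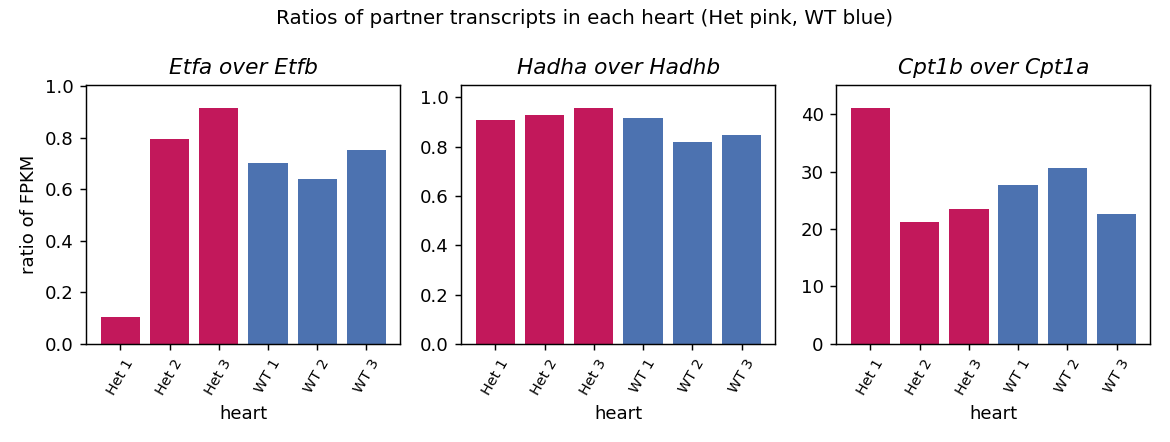
Bars give the ratio of the FPKM of 2 genes in each heart, Het in pink and WT in blue, for the ETF subunits, the trifunctional protein subunits and the muscle and liver forms of CPT1. In Het 1 the Etfa to Etfb ratio is 0.103 against at least 0.639 elsewhere, the Hadha to Hadhb ratio of 0.908 lies inside the range of the other hearts, and the Cpt1b to Cpt1a ratio is highest at 41.0.

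The remaining enzymes followed the majority. Eci1 and Eci2, isomerases needed for unsaturated fatty acids, were the members of this role with the smallest p. Eci1 stood at 27.5, 73.3 and 82.1 FPKM in Het hearts and 79.5, 74.2 and 80.8 FPKM in WT hearts (log2 fold change -0.50, SE 0.43). Eci2 stood at 5.64, 20.1 and 21.9 FPKM in Het hearts and 22.8, 19.3 and 21.9 FPKM in WT hearts (log2 fold change -0.59, SE 0.48, limma adjusted p = 0.753 for both). Without Het 1 they were -0.0106 for Eci1 and -0.0187 for Eci2. Decr1, the dienoyl-CoA reductase that also serves unsaturated chains, was at 32.4% of the WT mean in Het 1. Hadh, the short-chain hydroxyacyl-CoA dehydrogenase, and Echs1, the short-chain hydratase, were at 16.1% and 18.9%. Acaa2, the thiolase that closes the cycle, was at 38.2% in that heart. Among the 15 genes, values in Het 1 therefore ran between 13.9% of the WT mean for Etfdh and 95.8% for Etfb.

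The spread in Het 1 was described against transcript properties, using the longest protein-coding transcript of each gene in GENCODE M21. Across the 34 genes the difference in Het 1 had a Spearman rho of 0.43 with GC content and of 0.05 with length. Across 10985 tested genes with a transcript in that annotation the values were 0.15 and -0.05. Genes are not independent replicates, and all points share the Het 1 library. In Het 3 the rho with length was 0.56 across the 34 genes and 0.32 across the tested genes, and in Het 2 it was 0.27 and 0.21. The part of GC content, length and the mitochondrial share in these results was not tested.

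Among genes known to be induced by PPAR receptors, Pdk4, Ucp3, Acot1, Angptl4 and Acot2 had the widest spread between WT hearts of all 34 genes, while Ucp2 and Plin2 lay below the median of all tested genes. Pdk4, a kinase that switches pyruvate dehydrogenase off and so favours fat as fuel (chromosome 6, 5483351 to 5496309, minus strand), stood at 7.33, 90.3 and 273 FPKM in hearts Het 1, 2 and 3. It stood at 101, 41.1 and 126 FPKM in WT 1, 2 and 3, and the groups overlapped widely. Its highest WT value was 3.06 times the lowest, a spread exceeded by 1.05% of tested genes, whose median ratio was 1.21. The 95% interval of its log2 fold change ran from -3.43 to 2.51, and from -0.87 to 2.78 without Het 1.

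Ucp3, an uncoupling protein of muscle mitochondria (chromosome 7, 100472990 to 100486432, plus strand), stood at 10.5, 19.6 and 30.8 FPKM in Het hearts, against 17.2, 9.28 and 25.8 FPKM in WT hearts. Angptl4, a secreted inhibitor of lipoprotein lipase, was scarce, at 1.15, 0.632 and 3.42 FPKM in Het hearts and 1.54, 1.22 and 2.39 FPKM in WT hearts. Without Het 1 and Het 3, which leaves Het 2 alone at 0.632 FPKM, its log2 fold change was -0.71. Pdk4, Ucp3 and Angptl4 all had Het 3 as the highest heart, WT 3 as the next and WT 2 as the lowest WT heart. The same held for Acot2 and Plin2 in this role, and for Cd36, Eci1 and Etfdh outside it. Acot1, a cytosolic acyl-CoA thioesterase, stood at 0.366, 4.08 and 5.86 FPKM in Het hearts, against 2.48, 1.92 and 3.78 FPKM in WT hearts. Acot2, its mitochondrial relative, stood at 2.25, 18.6 and 22.1 FPKM in Het hearts, against 15.8, 13.7 and 21.9 FPKM in WT hearts (log2 fold change -0.65, SE 0.74, limma adjusted p = 0.758), and its log2 fold change without Het 1 was 0.26. Of all 100-base windows in the coding transcripts of Acot1, 16.3% also occur in Acot2, so part of the reads could be split between these genes and the level of Acot1 is uncertain.

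Plin2, which coats lipid droplets, stood at 5.37, 12.0 and 13.5 FPKM in Het hearts, against 10.6, 10.5 and 12.6 FPKM in WT hearts (log2 fold change -0.20, SE 0.34, limma adjusted p = 0.812). The sign turned without Het 1, to 0.17, and under median-ratio scaling, to 0.0149. Ucp2, an uncoupling protein of many tissues, differed least of the 7 among the hearts, at 6.67, 8.43 and 11.2 FPKM in Het hearts and 9.92, 8.58 and 8.63 FPKM in WT hearts. All 7 PPAR-induced genes were highest in Het 3, the heart with lung transcripts. Among the 34 genes 20 were highest in Het 3, where 15% of tested genes were. The median log2 difference of the 7 genes from the WT mean was -0.94, 0.14 and 0.73 in hearts Het 1, 2 and 3, against -0.07, -0.28 and 0.37 in WT 1, 2 and 3.

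**Figure D4:**
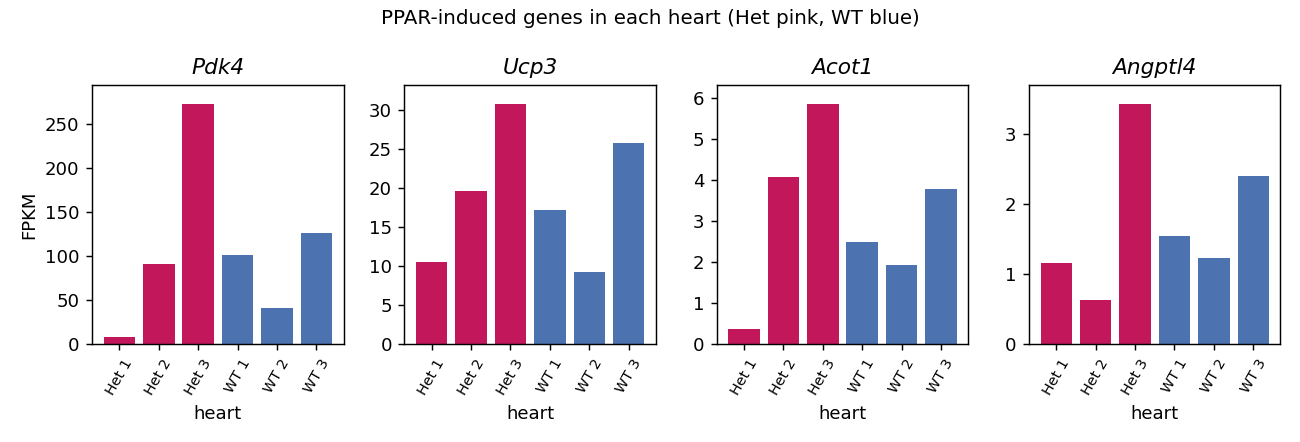
Bars give the FPKM of Pdk4, Ucp3, Acot1 and Angptl4 in each heart, Het in pink and WT in blue. Het 3 is the highest heart for all 4 genes, at 273 FPKM for Pdk4, WT 2 is the lowest WT heart for each, and Het and WT bars overlap.

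Promoters are shown for Pdk4, Ucp3 and Acot1, the members with the widest spread among WT hearts, and for Acadm, whose window holds a match. RefSeq windows of GRCm38.p6 cover 250 bases before and 50 bases after a start site, and 28 of the 34 genes have one. Both strands were searched for AGGTCA, the half-site bound by nuclear receptors such as PPAR and RXR, which is marked in capitals (as TGACCT where it lies on the opposite strand). The windows are those of Pdk4 (chr6:5496229-5496528, minus strand), Ucp3 (chr7:100472741-100473040, plus strand), Acot1 (chr12:84009252-84009551, plus strand) and Acadm (chr3:153944594-153944893, minus strand).
Pdk4: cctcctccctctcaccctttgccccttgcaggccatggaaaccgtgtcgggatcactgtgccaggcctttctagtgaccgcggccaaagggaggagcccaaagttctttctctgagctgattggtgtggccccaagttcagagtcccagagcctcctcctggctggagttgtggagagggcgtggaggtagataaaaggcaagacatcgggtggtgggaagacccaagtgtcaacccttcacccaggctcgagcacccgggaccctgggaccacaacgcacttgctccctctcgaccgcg
Ucp3: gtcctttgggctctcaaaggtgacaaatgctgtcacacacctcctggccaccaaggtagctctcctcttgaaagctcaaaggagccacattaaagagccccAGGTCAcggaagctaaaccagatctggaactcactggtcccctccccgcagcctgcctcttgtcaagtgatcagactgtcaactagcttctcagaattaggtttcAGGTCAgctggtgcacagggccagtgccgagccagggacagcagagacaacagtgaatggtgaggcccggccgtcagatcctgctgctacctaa
Acot1: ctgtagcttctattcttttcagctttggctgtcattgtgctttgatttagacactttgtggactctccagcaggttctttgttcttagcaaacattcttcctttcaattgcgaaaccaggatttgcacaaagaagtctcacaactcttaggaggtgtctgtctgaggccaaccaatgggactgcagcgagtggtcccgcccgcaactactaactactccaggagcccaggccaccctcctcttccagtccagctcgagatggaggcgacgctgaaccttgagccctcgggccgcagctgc
Acadm: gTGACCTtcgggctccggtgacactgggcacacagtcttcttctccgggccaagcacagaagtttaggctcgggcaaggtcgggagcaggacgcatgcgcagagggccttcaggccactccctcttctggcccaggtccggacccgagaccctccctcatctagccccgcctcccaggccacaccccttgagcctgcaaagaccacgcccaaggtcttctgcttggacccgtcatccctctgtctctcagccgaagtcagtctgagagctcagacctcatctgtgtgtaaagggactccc

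The Ucp3 window holds the half-site at positions -149 and -44 counted from the start site as 0, and the Acadm window holds it at -249 on the opposite strand. The Pdk4 and Acot1 windows hold none. Of the 28 genes with a window 8 hold a match, Acadm, Acadvl, Cd36, Cpt1a, Echs1, Plin2, Plin5 and Ucp3, in 9 of 32 windows, or 28.1%, against 16.3% of 32851 mouse windows. The direct repeat AGGTCANAGGTCA, the classical PPAR element, was in none of the 32 windows and in 0.0396% of all windows. The longer half-site AAGGTCA, which receptors of the ERR family bind and which contains AGGTCA, was in the Acadm window only, and in 4.72% of all windows.

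Lipid droplet genes and a thioesterase complete the set. Plin5, which tethers droplets to mitochondria in oxidative tissues (chromosome 17, 56111601 to 56117596, minus strand), stood at 10.6, 38.4 and 67.8 FPKM in hearts Het 1, 2 and 3, against 67.0, 42.5 and 57.6 FPKM in WT hearts. It had a log2 fold change of -0.82 (SE 0.64, limma adjusted p = 0.753), and of -0.0989 without Het 1. Het 2 was also below all WT hearts. Plin5 was the 1 member of 34 with an unadjusted limma p under 0.05 when Het 3 was left out (log2 fold change -1.38, limma adjusted p = 0.534). In that fit 397 of 11075 tested genes were lower at the same threshold. Pnpla2, adipose triglyceride lipase, which releases fatty acids from droplets, stood at 37.0, 98.1 and 123 FPKM in Het hearts and 86.0, 76.4 and 92.4 FPKM in WT hearts. Acot13, a small mitochondrial thioesterase, stood at 160, 139 and 118 FPKM in Het hearts and 144, 167 and 163 FPKM in WT hearts (log2 fold change -0.19, SE 0.24, limma adjusted p = 0.768), with a turn of sign under median-ratio scaling (0.0478) and quantile normalization (0.14). It was not low in Het 1, where it held 101% of the WT mean.

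The hearts also differed within the WT group. WT 2 was the lowest WT heart for 32 of the 34 genes, where 41.7% of tested genes had their lowest WT value there. The exceptions were Etfb and Acot13, which were highest in WT 2. Among the 5 hearts other than Het 1, WT 2 held the lowest value for 27 genes, against 25.8% of tested genes. Most of these gaps were small. The highest WT value was a median of 1.21 times the lowest across the 34 genes, the same as across all tested genes.

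Without Het 1 the direction of the set turned. The median log2 difference was 0.12 with Het 2 and 3 against WT, and 27 of 34 genes were above 0, where 42% of tested genes were and the median of all tested genes was -0.04. Without Het 1 and Het 3 the median of the 34 genes was 0.13. No member passed after adjustment without Het 1 in limma's test (0.0718% of tested genes did). At an unadjusted limma p under 0.05, Acot1, Pnpla2 and Cpt2 were higher, against 2.96% of tested genes, and Acot13 and Fabp3 lower, against 9.39% of tested genes. Their adjusted p values lay between 0.342 and 0.403. Cpt2 had a log2 fold change of 0.32 (95% interval 0.01 to 0.62), Pnpla2 of 0.37 (0.05 to 0.69) and Acot1 of 0.69 (0.12 to 1.27) in that fit.

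In that comparison 11 genes stood in both Het 2 and Het 3 above every WT heart, among them Acsl1, Cpt2, Hadha, Hadh and Pnpla2, where 10.9% of tested genes did. Only Fabp3, Etfb and Acot13 stood below every WT heart in both, where 21.8% of tested genes did. These 3 have the shortest of the 34 coding transcripts, at 823, 893 and 721 bases. For the beta-oxidation genes the intervals without Het 1 were narrower than with all hearts. Het 2 and Het 3 alone stand for Het in that fit. The intervals ran from -0.16 to 0.40 for Acadm, -0.15 to 0.32 for Etfa and -0.13 to 0.56 for Hadha. With all hearts they ran from -2.65 to 1.02, -2.74 to 1.00 and -2.60 to 1.13, in that order, on the same log2 scale.

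Other genes of the pathway were less uniform. Of 61 further genes of uptake, carnitine transport, oxidation and lipid storage, 56 had values and 51 were tested. None passed limma's test at an adjusted p or at an unadjusted p under 0.05, where 3.08% of tested genes were lower and 0.802% higher at the unadjusted threshold. Het 1 was lowest for 41 of the 51, against 64.8% of tested genes. Others were highest there, among them Fabp5, a fatty acid binding protein, at 7.51 FPKM in Het 1 and 3.80 to 5.44 FPKM in the other hearts, and Gpihbp1, which anchors lipoprotein lipase in capillaries, at 34.9 FPKM in Het 1 and 20.0 to 33.0 FPKM in the others. Slc25a20, the carnitine-acylcarnitine carrier of the inner membrane, stood at 4.21, 23.8 and 26.6 FPKM in Het hearts, against 23.3, 19.1 and 23.4 FPKM in WT hearts. Among the genes with the smallest p were Plin4, Cyp4b1, G0s2, Acot9 and Txnip. Plin4, a droplet coat protein, averaged 46.4 ± 15.9 FPKM in Het hearts and 65.8 ± 7.33 FPKM in WT hearts (SD, n = 3 each). For Plin4 the log2 fold change was -0.55, and -0.24 without Het 1. G0s2, an inhibitor of adipose triglyceride lipase, averaged 25.4 ± 3.88 FPKM in Het hearts and 41.6 ± 18.3 FPKM in WT hearts (SD, n = 3 each). Cyp4b1, a fatty acid hydroxylase that is abundant in lung, stood at 12.5, 8.93 and 21.2 FPKM in hearts Het 1, 2 and 3, against 8.40 to 9.80 FPKM in WT hearts, highest in the heart with lung transcripts.

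Receptors and coactivators that drive the pathway were not called either. Of 15 tested, 0 had an unadjusted limma p under 0.05, where 3.08% of tested genes were lower and 0.802% higher. Het 1 was lowest for 14 of them, against 64.8% of tested genes. Ppargc1a, which encodes PGC-1alpha, stood at 3.39, 14.9 and 22.1 FPKM in Het hearts, against 45.3, 23.9 and 20.3 FPKM in WT hearts (log2 fold change -1.31, SE 0.65, limma adjusted p = 0.753). Without Het 1 its log2 fold change was -0.60. Klf15, a factor that induces lipid use in heart, averaged 17.7 ± 5.73 FPKM in Het hearts and 26.0 ± 3.53 FPKM in WT hearts, and Med1, a Mediator subunit that binds PPAR, averaged 3.57 ± 1.12 FPKM in Het hearts and 4.98 ± 0.547 FPKM in WT hearts (SD, n = 3 each). Their log2 fold changes were -0.58 for Klf15 and -0.42 for Med1, and without Het 1 -0.29 and -0.20 in that order. Ppara stood at 0.867, 8.07 and 7.75 FPKM in Het hearts, against 11.5, 5.29 and 9.83 FPKM in WT hearts. Ppara was lowest in Het 1, as were 30 of the 34 fatty acid genes. Within WT it was lowest in WT 2, as were 32 of the 34.

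Fat cells, vessel cells and macrophages also express some of these genes, so their markers were set beside them. Of 10 adipocyte markers 5 had values, and Adipoq, Plin1, Cidec, Retn and Lep were not analysed here. The sum of the 5 was 63.4 to 123 FPKM in Het hearts, highest in Het 1, and 72.8 to 93.3 FPKM in WT hearts, most of it Fabp4, which endothelial cells also express. Others of the list ran the other way. Car3, a carbonic anhydrase of fat and muscle, stood at 0.194, 1.26 and 0.740 FPKM in Het hearts, against 3.57, 3.08 and 5.07 FPKM in WT hearts. Pck1, a gluconeogenic enzyme, stood at 0.0825 to 0.247 FPKM in Het hearts, against 0.557 FPKM or more in WT hearts. Their q-values in the authors' deposited table are 0.0063 for Car3 and 0.000377 for Pck1. Both were lower in every Het heart than in any WT heart, as was the sum of the hepatocyte markers. Of 6 brown fat markers 3 had values, summing to 77.2 to 117 FPKM in Het hearts and 102 to 115 FPKM in WT hearts, and Ucp1 was not analysed here. The 3 went opposite ways in Het 1. Cox8b was highest there, at 106 FPKM against at most 65.1 FPKM in any other heart. Cidea, at 8.19 FPKM, and Ppargc1a, at 3.39 FPKM, were lowest there. Ppargc1a is also among the coactivators described above, so this sum does not measure brown fat alone. The 10 endothelial markers, a cell type that expresses Cd36, summed to 176 to 214 FPKM in Het hearts and 184 to 219 FPKM in WT hearts. The 10 macrophage markers summed to 150 to 260 FPKM in Het hearts, highest in Het 3, and 134 to 151 FPKM in WT hearts. Lyz2 alone stood at 168 FPKM in Het 3 and 44.6 to 58.9 FPKM in the other hearts. Csf1r, Adgre1, Mrc1 and Cd163 were also highest in Het 3, while C1qa, C1qb and C1qc were lower there than in Het 1 and Het 2. Members of these sums differed in Het 1. Of the endothelial markers, Egfl7 stood at 58.7 FPKM in Het 1 and 17.8 to 30.4 FPKM in the other hearts, while Kdr stood at 10.2 FPKM in Het 1 and 17.0 to 22.9 FPKM in the others. Of the macrophage markers, C1qa was highest and Adgre1 and Cd163 were lowest in Het 1. Fibroblast markers summed to 84.6 to 126 FPKM in Het hearts, lowest in Het 1, and 121 to 151 FPKM in WT hearts. Erythroid markers summed to 680 to 5707 FPKM in Het hearts, highest in Het 1, and 1006 to 1395 FPKM in WT hearts. Of 8 skeletal muscle markers 5 had values, and Myh4, Myh2 and Actn3 were not analysed here. The 5 summed to 409 to 781 FPKM in Het hearts, lowest in Het 1, and 709 to 743 FPKM in WT hearts. Most of that sum was Ckm and Acta1. Tnnt3, Mylpf and Tnni2 stood at 2.08 FPKM or less in every heart, with Mylpf highest in Het 1. The part of these cell types in the values of the fatty acid genes was not tested.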

How the data were processed

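RNA was measured in 6 heart libraries, 3 Het and 3 WT. Libraries were made from poly(A) RNA with digestion of a dUTP-marked second strand, per the labels' protocols. The sources used here do not say whether counting used strand. Per the submitters' processing notes, cutadapt 1.9, HISAT2 2.0.4, StringTie 1.3.4d, edgeR, DESeq2 and build mm10 were used, with no steps named. The deposited table holds FPKM, a unit inferred from the values and from StringTie, and no counts, so absolute depth is unknown and no counting interval is given. Beside it the authors deposited a fold change ratio, its log2, a p-value, a q-value and a −log10 p-value.

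Het and WT were compared with limma 3.58.1 in R 4.3.3 on log2(FPKM + 1), using a variance trend and robust moderation. Genes averaging under 1 FPKM were left out, which kept 11096, and p-values were adjusted by Benjamini-Hochberg at 0.05. The fit was tested on simulated data drawn with the spread of the WT hearts, without an outlying library such as Het 1. Of 14956 identifiers 14596 were found in GENCODE M21 (GRCm38), which gave coordinates and transcripts. Figures were drawn with matplotlib 3.10.9.

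The 34 members and the other lists were chosen with earlier results of these data known. Values in every library were to be given for members with an unadjusted p or deposited q under 0.05 and for at least 2 per role by smallest p. The values of the other members printed heart by heart were chosen after they were seen. Of the genes outside the 34, 1 that the rule names is not reported here. The labels do not tie each library to its own mouse, so p-values measure the spread between these samples.

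Same-numbered libraries deviated from their group means with correlations of -0.20, -0.43 and 0.21. Differently numbered libraries ran from -0.39 to 0.51. With 3 libraries a group these values cannot settle whether the numbers pair the hearts, and the main fit did not pair them.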

Additional observations from a re-analysis of the deposited data

How the results depend on the processing

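No fatty acid gene passed limma's test in any of 15 alternatives that tested it, with adjusted p values of 0.342 or more. Acot1 and Angptl4 were not tested at a mean of at least 5 FPKM. The median log2 difference of the 34 genes, -0.47 as reported, ran from -0.78 to 0.12 with single libraries left out. The highest value is the one without Het 1, where 25 of 34 genes changed sign. Over all tested genes, 76.6% lay below 0 with all hearts and 42% above 0 without Het 1. The share of all genes that changed sign is not given here. With single libraries left out, role medians ran from -0.71 to 0.0939 for uptake, -0.60 to 0.24 for activation, -0.91 to 0.11 for beta-oxidation, -0.47 to 0.26 for PPAR-induced genes and -0.48 to -0.0989 for the droplet and thioesterase genes, lowest without Het 3. In the same fits Cd36 ran from -0.997 to 0.0992, Acsl1 from -0.92 to 0.31, Acot2 from -1.16 to 0.26, Plin2 from -0.42 to 0.17 and Slc25a20 from -1.01 to 0.20.

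With library weights, where Het 1 had a weight of 0.0486, the median was 0.0723. Role medians were 0.0546 for uptake, 0.21 for activation, 0.0623 for beta-oxidation and 0.20 for PPAR-induced genes, and the log2 fold changes 0.0559 for Cd36, 0.23 for Acsl1, 0.20 for Acot2, 0.16 for Plin2 and 0.14 for Slc25a20. Without Het 1 and Het 3 the median was 0.13, with 0.000559 for uptake, 0.19 for activation, 0.13 for beta-oxidation, 0.14 for PPAR-induced genes, 0.24 for Acsl1, 0.14 for Acot2, 0.0958 for Plin2, 0.12 for Slc25a20, -0.0846 for Cd36 and -0.00196 for Cyp4b1. Only Het 2 then stands for its genotype and is assumed to vary like WT.

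Median-ratio scaling moved the median of all genes to -0.00102, against -0.18 as reported, and quantile normalization to -0.0105. With median-ratio scaling the values were 0.0452 for PPAR-induced genes, 0.0478 for the droplet and thioesterase genes, 0.0520 for Cpt1b, 0.0149 for Plin2 and 0.0478 for Acot13. With quantile normalization they were 0.0132 for PPAR-induced genes, 0.12 for the droplet and thioesterase genes, 0.15 for Cpt1b and 0.14 for Acot13. The cause of these reversals was not tested.

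The count of all genes called, 2 as reported, was 1 with the replicate block, median-ratio scaling or quantile normalization, 22 with library weights, 153 without Het 1 and Het 3, and 1 to 38 with single libraries left out, 38 without Het 3, 25 without Het 2 and 8 without Het 1. Otub1 had a log2 fold change of -1.07 with weights and -1.08 without Het 1 and Het 3, and of -1.26 to -1.06 with single libraries left out. Its limma adjusted p ran from 0.00385 to 0.936 over the alternatives. The replicate block changed no fatty acid gene's call and left the median at -0.47. A design of 3 hearts a group and FPKM without counts limit the precision.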
